A study of Mus musculus with 12 samples.

Results

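The simple epithelial keratins are the filament proteins of single-layered epithelia, and 7 of their genes were followed here: *Krt8* and *Krt18*, the pair made by hepatocytes, *Krt7* and *Krt19*, which are added in bile duct cells, and *Krt20*, *Krt23* and *Krt80*. They were taken by gene symbol as 7 of the 45706 genes of the deposited expression table. The genes were chosen by their levels in sorted against unsorted cells, because *Krt7* was known to be higher and *Krt19* lower in the sorted cells of this series, so differences between sorted and unsorted cells are given for these genes as values without a test. The rule did not use the responses to hypoxia within sorted and within unsorted cells, which were tested.

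All 12 libraries came from BN1-Tie2-EGFP cells, a mouse hepatoblastoma (HB) line raised from 1 FVB/N liver tumor driven by mutant β-catenin and NRF2, in which *Cdkn2a* had been targeted by Crispr, so every group carried the same oncogenes and the same targeted locus. A Tie2-EGFP reporter, in which the promoter of the endothelial receptor gene *Tek* drives EGFP, had been added and the transfected clones pooled. UN cells were unsorted and normoxic (21% O2) and UH cells were unsorted cells kept for 2 days at 1% O2. The SN group held cells sorted, while hypoxic, for the brightest EGFP and then grown at 21% O2 for some 10 days. The SH group was obtained from SN by 2 further days at 1% O2. Sorted cells thus differed from unsorted cells by the sort, the hypoxia before it and the growth after it. The design cannot tell these apart. Each group had 3 libraries, all of the same line, and the labels do not say whether they were separate cultures, so the p-values below measure the spread between these libraries. Only part of the sorted cells kept EGFP over the weeks after the sort.

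Keratin filaments are built from obligate pairs of 1 acidic type I chain and 1 basic type II chain. *Krt18*, *Krt19*, *Krt20* and *Krt23* encode type I chains, and *Krt7*, *Krt8* and *Krt80* encode type II chains. Hepatocytes rely on the *Krt8* and *Krt18* products alone, cholangiocytes and the progenitor-like cells of the ductal plate add those of *Krt7* and *Krt19*, and an unpaired chain is generally degraded. In GENCODE M21 on GRCm38 (mm10, the build in the labels) the type II genes lie on chromosome 15, *Krt80* at chr15:101347444-101370162 on the minus strand, *Krt7* at chr15:101411043-101430313 on the plus strand and *Krt8* at chr15:101996698-102004482 on the minus strand. *Krt18*, the only type I gene outside the type I cluster, is at chr15:102028180-102032027 on the plus strand, 23697 bases from *Krt8*. The others lie on chromosome 11 on the minus strand, *Krt20* at chr11:99428403-99438150, *Krt23* at chr11:99477974-99493137 and *Krt19* at chr11:100140810-100148665.

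The promoters of *Krt7* and of the neighbouring pair *Krt8* and *Krt18* are shown because the levels of these 3 genes went 3 different ways between the groups. Each line is the 250 bases before the RefSeq start site on GRCm38.p6, written 5′ to 3′ on the gene's own strand, and capitals mark matches on either strand to TATAAA (the TATA box), to ACGTG and also GCGTG (core letters of hypoxia response elements), to GGGCGG (the core of an Sp1 site) and to TGANTCA (an AP-1 site, N being any base). No match overlapped another.
Krt7, chr15:101412153-101412402, plus strand: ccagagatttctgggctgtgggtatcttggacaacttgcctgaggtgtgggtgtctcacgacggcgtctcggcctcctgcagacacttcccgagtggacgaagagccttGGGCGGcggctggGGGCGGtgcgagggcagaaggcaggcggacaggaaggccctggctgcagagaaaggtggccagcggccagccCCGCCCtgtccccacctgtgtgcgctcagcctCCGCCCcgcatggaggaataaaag
Krt8, chr15:102004343-102004592, minus strand: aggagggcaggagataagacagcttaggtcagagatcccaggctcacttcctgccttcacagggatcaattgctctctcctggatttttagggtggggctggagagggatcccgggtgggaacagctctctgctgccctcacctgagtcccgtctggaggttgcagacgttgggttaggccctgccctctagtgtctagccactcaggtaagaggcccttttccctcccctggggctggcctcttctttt
Krt18, chr15:102027966-102028215, plus strand: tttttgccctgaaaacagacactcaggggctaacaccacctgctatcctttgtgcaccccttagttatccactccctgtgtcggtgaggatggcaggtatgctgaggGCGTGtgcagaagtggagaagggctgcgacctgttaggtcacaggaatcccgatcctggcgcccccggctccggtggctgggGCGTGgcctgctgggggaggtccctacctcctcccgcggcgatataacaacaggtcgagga
The *Krt7* stretch held 4 matches to GGGCGG, which 32.7% of all 32851 promoter stretches of this length hold at least once. The *Krt18* stretch held 2 matches to GCGTG, 143 and 61 bases before the start, and 28.2% of all promoters hold that motif. None of the motifs occurred in the *Krt8* stretch. Among all promoters 12.4% hold TATAAA, 16.6% ACGTG and 6.75% TGANTCA. GC content was 66.0% for *Krt7*, 58.0% for *Krt8* and 60.4% for *Krt18*, against a median of 52.4% over all promoters. The RefSeq starts of all 3 genes lie inside the longer GENCODE genes, as do the whole *Krt7* stretch and the ends of the *Krt8* and *Krt18* stretches. Of the 7 keratins, 5 had a promoter entry, and *Krt19* and *Krt80* had none.

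Values are TPM, transcript abundances scaled per transcript length and per library, so that levels of different genes can be set side by side. Read totals were not part of the table, so the depth is unknown and no counting error can be given. Libraries of 1 group correlated at 0.977 to 0.991 over log2(TPM + 1), with the lowest value among the UN libraries. UN replicate 1 stood apart from the other UN libraries, with 33.7 TPM of *Krt8* against 77.9 and 84.9. It also had 1960 TPM of *Col3a1*, a fibrillar collagen, against 222 and 173. Most keratin results that use UN are therefore also given without it. Calls in UH, SN or SH against UN that change without it are named for the filament, desmosome, junction and transcription factor lists. For the cell type markers such changes are not named. The mitochondrial share of TPM was lower in hypoxia, at 1.67 to 2.53% in UH against 5.18 to 7.55% in UN and at 2.66 to 4.68% in SH against 7.64 to 8.38% in SN. More genes were above 0 TPM in SH (21666 to 22369) than in the other groups (18901 to 20251). The part of these differences in the keratin results was not tested.

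The line was checked against markers of the cell types it could hold. Of 15 hepatocyte markers, 1 to 4 reached 1 TPM in a library, *Alb* did not exceed 4.23 TPM, and the higher sum in sorted cells (40.4 to 62.1 TPM against 5.43 to 22.0 TPM in unsorted cells) was mostly *Trf*, the transferrin gene. Of 12 biliary markers other than keratins, 6 or 7 reached 1 TPM in every library, among them *Sox9* (15.3 to 70.8 TPM) and *Spp1* (588 to 4716 TPM), while *Epcam* stayed at or below 0.310 TPM. Fibroblast markers summed to 1175 to 5160 TPM in UN and 4851 to 7133 TPM in UH but to 200 to 210 TPM in SN and 50.5 to 66.6 TPM in SH. The sums in unsorted cells were mostly *Col1a1*, *Col1a2*, *Col3a1* and *Acta2*. Of 8 tested, 5 passed as lower in SN than in UN and 0 as higher, against 7.57% and 3.2% of all genes. *Dcn* (81.3 to 349 TPM in UN, 116 to 126 TPM in SN) and *Pdgfrb* (28.4 to 74.6 and 40.3 to 47.7 TPM) did not pass there. These 2 made up most of the SN sum. Endothelial markers summed to 11.3 to 45.5 TPM in UN, 53.0 to 69.6 TPM in UH, 4.61 to 5.78 TPM in SN and 13.5 to 16.2 TPM in SH, mostly *Eng* and *Flt1* in unsorted cells, with the defining genes *Pecam1* and *Cdh5* at most 0.484 and 0.0967 TPM. *Tek*, whose promoter drives the reporter used for the sort, went against these sums, at 0.124 to 0.141 TPM in UN, 0.0853 to 0.226 TPM in UH, 2.07 to 2.70 TPM in SN and 2.83 to 3.29 TPM in SH. Leukocyte markers summed to 4.35 to 21.3 TPM in unsorted and 9.31 to 61.8 TPM in sorted cells, mostly *Cd68* and *Csf1r*, with *Ptprc* at most 0.121 TPM, and mesothelial markers, all but wholly *Msln* and *Wt1*, to 30.8 to 144 TPM in unsorted and 71.9 to 185 TPM in sorted cells. In bulk RNA a lower share of cells of 1 type and less RNA per cell cannot be told apart.

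The keratin message of these cells differed in composition between sorted and unsorted cells and between hypoxia and normoxia. In UN, *Krt18* made up 42.4% ± 5.25 (SD, n = 3) of the summed TPM of the 7 genes, *Krt8* 28.3% ± 2.59 and *Krt19* 26.5% ± 4.06. In UH, *Krt19* alone made up 77.7% ± 0.843. In SN, *Krt18* made up 90.9% ± 1.25, *Krt7* 3.99% ± 0.718, *Krt8* 3.47% ± 0.343 and *Krt19* 0.656% ± 0.493. In SH these shares were 79.6% ± 5.32, 8.35% ± 2.04, 6.91% ± 0.678 and 3.40% ± 1.88. The sum itself was 131 to 276 TPM in UN, 552 to 661 TPM in UH, 111 to 162 TPM in SN and 109 to 189 TPM in SH, so UH stood above the other groups and those overlapped.

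**Figure D1:**
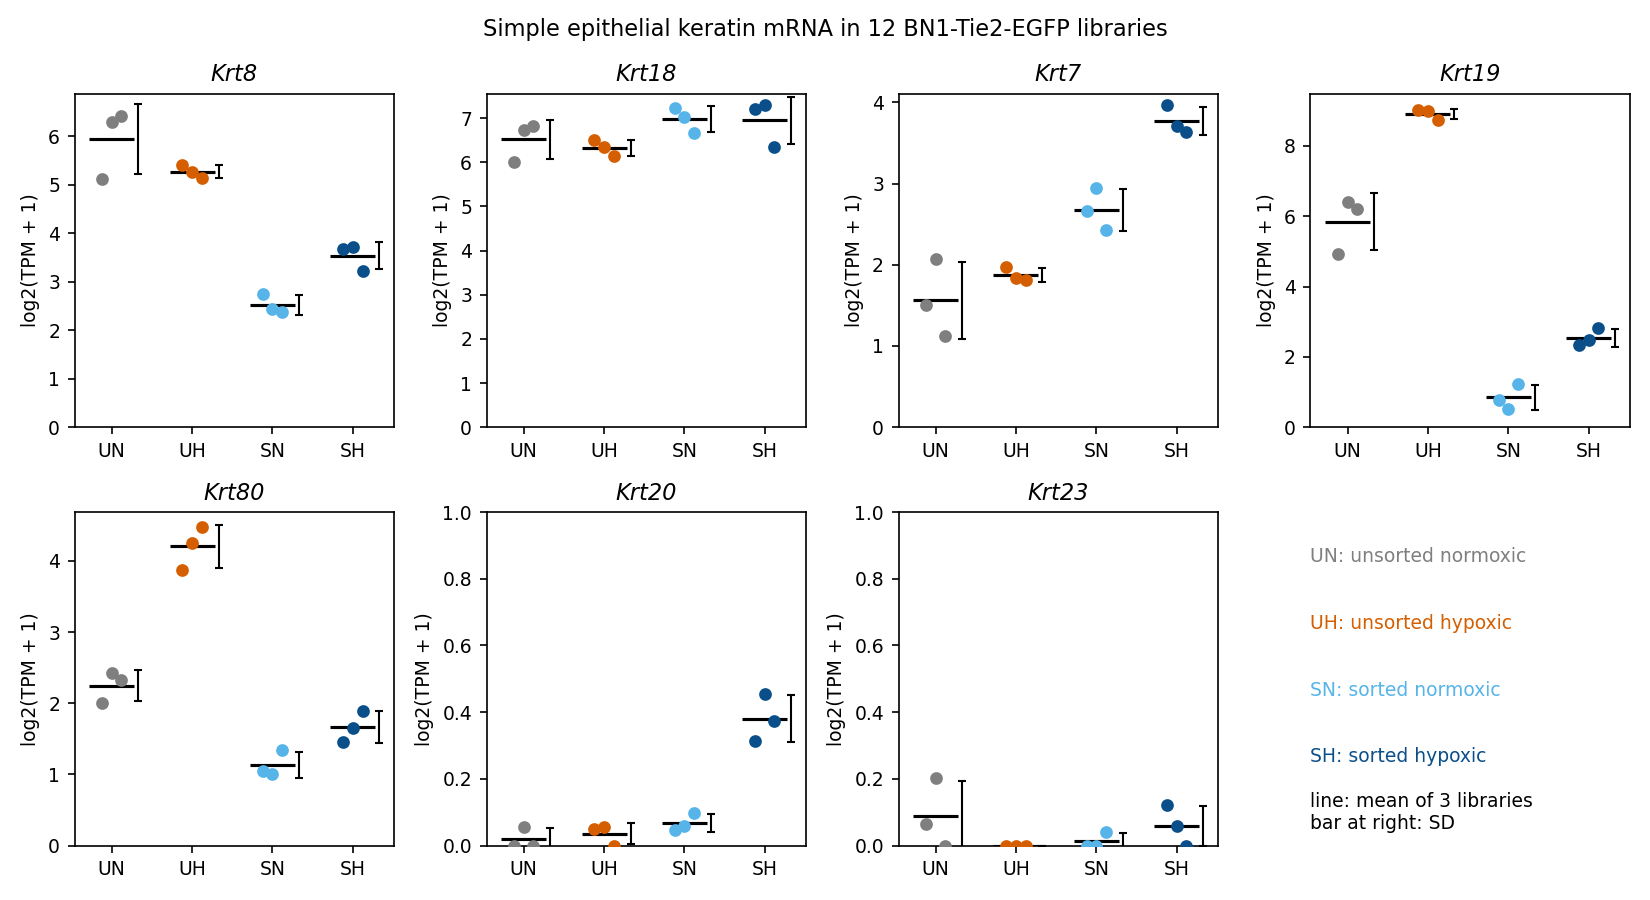
Level of each of the 7 keratin mRNAs, as log2(TPM + 1) on the vertical axis, in the 12 libraries by group; points are libraries, lines are means of 3 libraries and bars are SDs, and the scale differs between panels. *Krt18* stays between 63.5 and 157 TPM in every library, *Krt8*, *Krt19* and *Krt80* are lower in both sorted groups than in both unsorted groups, and *Krt7* is higher there.

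*Krt18*, the type I chain of the hepatocyte pair, had the narrowest range, as a ratio of highest to lowest library, of the 5 of these keratins that were tested. Its level was 63.5, 104 and 112 TPM in UN, 89.2, 79.98 and 69.6 TPM in UH, 149, 130 and 99.8 TPM in SN and 147, 157 and 80.1 TPM in SH. The groups overlapped in each of the 5 pairs compared, while UH against SN, which was not compared, had all SN libraries above all UH libraries. With hypoxia it differed by -0.19 ± 0.270 (log2 fold change of TPM + 1 ± SE, limma adjusted p = 0.603, 95% interval -0.78 to 0.40) in unsorted cells and by -0.02 ± 0.270 (limma adjusted p = 0.973, interval -0.61 to 0.57) in sorted cells. The sign itself varied with scaling. Without UN replicate 1 all UH libraries lay below both remaining UN libraries, and the difference was -0.45 (limma adjusted p = 0.196).

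*Krt8*, the type II partner of *Krt18*, was the keratin that separated from its pair. It was at 33.7, 77.9 and 84.9 TPM in UN and at 41.5, 37.6 and 34.4 TPM in UH, where UN replicate 1 lay below all UH libraries. Sorted cells had 5.72, 4.41 and 4.204 TPM in normoxia and 11.77, 12.2 and 8.38 TPM after renewed hypoxia. Both sorted groups lay below every unsorted library, and the mean was 13.7-fold lower in SN than in UN and 3.51-fold lower in SH than in UH. Without UN replicate 1 the first of these ratios was 17.0.

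Hypoxia had opposite signs for *Krt8* in sorted and in unsorted cells. Among sorted cells it rose in SH by 1.02 ± 0.287 (log2 ± SE, limma adjusted p = 0.0139), a 2.26-fold difference of means. Among unsorted cells it differed by -0.67 ± 0.287 and did not pass (limma adjusted p = 0.0759). Leaving out UN replicate 1 brought that difference to -1.09 (limma adjusted p = 0.00043), which passed, so this call was decided by 1 library. The rise in sorted cells stood just over the 2-fold limit for a call, and fell to 0.978, 0.950, 0.954 and 0.931 without SN replicate 2, SN replicate 3, SH replicate 1 and SH replicate 2. The difference between the responses, tested as an interaction, was 1.69 ± 0.406 (limma adjusted p = 0.0129) and 2.11 without UN replicate 1 (limma adjusted p = 0.000131).

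The ratio of *Krt8* to *Krt18* TPM compressed these levels into 1 value per library. It was 0.531, 0.746 and 0.756 in UN, 0.466, 0.470 and 0.494 in UH, 0.0384, 0.0340 and 0.0421 in SN, and 0.0803, 0.0775 and 0.105 in SH. The 4 groups did not overlap and stood in the order UN, UH, SH, SN. Put the other way, there were 1.32 to 1.88 *Krt18* transcripts for each *Krt8* transcript in UN and 23.7 to 29.4 in SN. *Krt7*, the other type II chain, did not make up the difference: *Krt7*, *Krt8* and *Krt80* together came to 0.452 ± 0.0354 (SD, n = 3) of the summed type I TPM in UN, 0.105 ± 0.0116 in UH, 0.0914 ± 0.00975 in SN and 0.203 ± 0.0509 in SH. UH and SN had nearly the same low ratio through different genes, with *Krt19* forming the type I excess in UH and *Krt18* in SN.

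**Figure D2:**
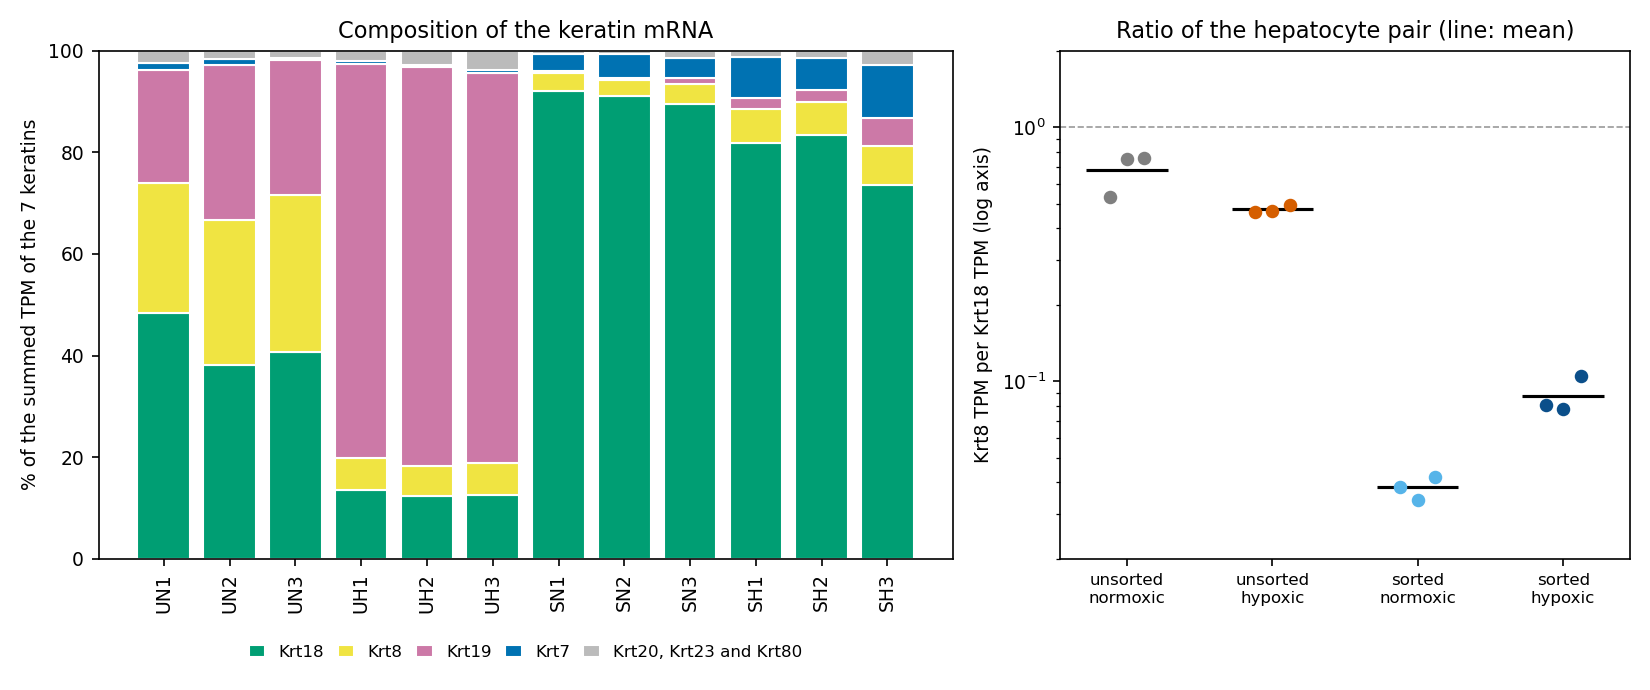
Left, share of the summed TPM of the 7 keratins taken by each gene (vertical axis, %) in each of the 12 libraries. Right, *Krt8* TPM per *Krt18* TPM on a log axis, points being libraries and lines means of 3; the UN libraries sit between 0.531 and 0.756 and the SN libraries between 0.0340 and 0.0421.

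*Krt19*, the smallest type I keratin and a marker of cholangiocytes and hepatic progenitors, spanned the widest range of the 7 genes. It was at 29.4, 83.4 and 73.2 TPM in UN and at 513, 506 and 424 TPM in UH. Sorted cells had 0.714, 0.438 and 1.36 TPM in SN and 4.003, 4.53 and 6.07 TPM in SH. No groups overlapped, and the order was UH, UN, SH, SN. The SN mean was 74.1-fold below UN and the SH mean 98.9-fold below UH, so that even hypoxic sorted cells had 12.7-fold less than normoxic unsorted cells. Without UN replicate 1 the ratios to UN were 93.5 for SN and 16.1 for SH.

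Hypoxia raised *Krt19* in both settings. The rise was 3.06 ± 0.326 (log2 ± SE, limma adjusted p = 1.55e-05) in unsorted cells, 7.76-fold by means and 6.15-fold without UN replicate 1. In sorted cells it was 1.69 ± 0.326 (limma adjusted p = 0.00152), 5.81-fold by means. Their difference, -1.37 ± 0.461, missed the threshold (limma adjusted p = 0.0533). It is set in part by the added 1 TPM, since the SN level was near 1 TPM, and it shrank to -0.58 when 0.1 TPM was added instead. Without UN replicate 1 it was -0.91 (limma adjusted p = 0.0323), under the 2-fold limit.

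*Krt7*, the type II keratin of bile ducts, went the other way between sorted and unsorted cells. It was at 1.83, 3.19 and 1.18 TPM in UN, 2.92, 2.57 and 2.52 TPM in UH, 5.32, 6.72 and 4.40 TPM in SN and 14.6, 12.1 and 11.4 TPM in SH. UN and UH overlapped, and SN lay above both and SH above SN. The mean was 2.65-fold higher in SN than in UN, or 2.51-fold without UN replicate 1, and 4.75-fold higher in SH than in UH. *Krt7* thus remained a minor keratin in TPM, but it equalled *Krt8* in sorted cells, with 0.930 to 1.52 *Krt7* per *Krt8* transcript in SN and 0.991 to 1.36 in SH against 0.0139 to 0.0733 in unsorted cells.

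With renewed hypoxia *Krt7* rose in sorted cells by 1.09 ± 0.227 (log2 ± SE, limma adjusted p = 0.00245), 2.32-fold by means. The rise fell under the 2-fold limit, to 0.965 and 0.990, without SN replicate 3 and SH replicate 1, with adjusted p still 0.0136 and 0.0149 (limma). In unsorted cells *Krt7* differed by 0.31 ± 0.227 (limma adjusted p = 0.292, interval -0.18 to 0.81), and the difference between the responses, 0.78 ± 0.320, did not pass (limma adjusted p = 0.104).

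*Krt80*, a type II keratin of many epithelia that sits next to *Krt7* in the genome, followed *Krt19* and not its neighbour. It was at 3.01, 4.36 and 3.995 TPM in UN, 13.7, 18.1 and 21.3 TPM in UH, 1.07, 1.00 and 1.54 TPM in SN and 1.75, 2.14 and 2.72 TPM in SH. No groups overlapped. Hypoxia raised it by 1.96 ± 0.197 (log2 ± SE, limma adjusted p = 1.03e-05) in unsorted cells, 4.68-fold by means and 4.24-fold without UN replicate 1. In sorted cells it was higher by 0.53 ± 0.197 (limma adjusted p = 0.0482), 1.83-fold, which did not reach the 2-fold limit. The response was smaller in sorted cells by 1.42 ± 0.279 on the log2 scale (interaction, limma adjusted p = 0.00467). The mean was 3.15-fold lower in SN than in UN, or 3.47-fold without UN replicate 1, and 8.05-fold lower in SH than in UH.

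*Krt20*, a keratin of intestinal and urothelial surfaces, and *Krt23*, a stress-inducible type I keratin, were near the bottom of the scale. *Krt20* was listed at 0.243, 0.370 and 0.296 TPM in SH and at no more than 0.0704 TPM in any other library. *Krt23* was listed at 0.0461, 0.152 and 0 TPM in UN, at 0 in all UH libraries, at 0, 0 and 0.0294 TPM in SN and at 0.0871, 0.0423 and 0 TPM in SH. Both averaged under the minimum of 0.1 TPM and were not tested with the other genes. With no minimum, *Krt20* was higher in SH than in SN by 0.31 on the log2(TPM + 1) scale (limma adjusted p = 0.000183). That is below the 2-fold limit, which values under 1 TPM cannot reach on this scale. The ratio of its means was 6.24, with all SH libraries above all SN libraries.

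Counted together, 2 of the 5 tested keratins (*Krt19* and *Krt80*) passed as higher in UH than in UN and none as lower, where 5.46% of all 18909 genes tested passed as higher and 11.8% as lower. Without UN replicate 1 the count was 3, *Krt8* being added as lower. These 2 were also the ones without overlap, all UH libraries being higher, as for 14.9% of all genes, with 36.2% lower. In SH against SN, 3 of 5 (*Krt7*, *Krt8* and *Krt19*) passed as higher and none as lower, against 7.47% and 5.0% of all genes, and 4 of 5 had all SH libraries above all SN libraries, against 29.7% of all genes higher and 27.1% lower. The number of keratins that passed in SH against SN was 1, *Krt19*, without SN replicate 3 and without SH replicate 1. The interaction passed for 2 of 5, higher for *Krt8* and lower for *Krt80*, against 8.08% and 2.18% of all genes. Between sorted and unsorted cells 1 of the 5 was higher without overlap (*Krt7*) and 3 were lower (*Krt8*, *Krt19* and *Krt80*), the choice of genes having used these differences. That held for SN against UN, where 20.3% of all genes were higher and 28.7% lower without overlap, for SH against UH, with 34.5% and 17.2%, and for SH against UN, with 26.5% and 32.9%. The median gene was lower by 0.19 (log2) in UH than in UN, and after scaling that set this median to 0 the UH values were 3.42 for *Krt19*, 2.27 for *Krt80*, 0.56 for *Krt7*, 0.16 for *Krt18* and -0.32 for *Krt8*, with the last 3 not past the threshold. UH against UN and SH against UN share their UN libraries, as SH against SN and SN against UN share SN.

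**Figure D3:**
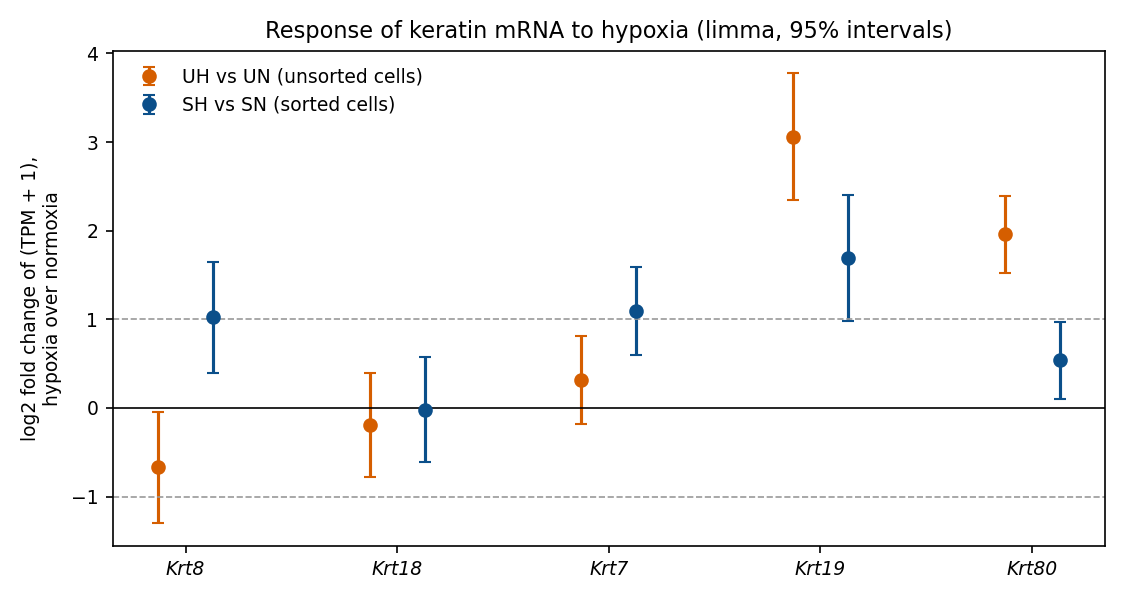
Log2 fold change of TPM + 1 with hypoxia (vertical axis) for the 5 keratins tested, in unsorted (UH vs UN) and sorted (SH vs SN) cells; points are limma estimates from 3 libraries a group, bars are 95% intervals and dashed lines mark a 2-fold change. The intervals for *Krt8* lie on opposite sides of 0, those for *Krt18* include 0 in both, and that for *Krt80* in unsorted cells lies above its interval in sorted cells.

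Among keratins of stratified epithelia, 2 genes passed as higher in the sorted cells in hypoxia. *Krt10*, on the same list, was at 3.72 to 7.30 TPM in every library of every group. Of 20 genes for stratified and basal keratins, 8 were tested and 2 passed, both higher in SH than in SN, and none passed in UH against UN or in SN against UN. Of all genes, 7.47% passed as higher and 5.0% as lower in SH against SN, 5.46% and 11.8% in UH against UN, and 3.2% and 7.57% in SN against UN. The shares were 7.65% and 5.35% in SH against UH, 8.97% and 11.3% in SH against UN, and 8.08% and 2.18% in the interaction. *Krt13*, a keratin of mucosal surfaces, went from 0.825, 0.542 and 1.52 TPM in SN to 11.5, 15.5 and 15.1 TPM in SH (2.95 ± 0.245 log2, limma adjusted p = 4.22e-06). It was at 1.66 to 2.80 TPM in UN. *Krt15*, a keratin of basal cells, went from 0.223, 0.167 and 0.0806 TPM to 4.17, 6.50 and 2.28 TPM (2.12 ± 0.303, limma adjusted p = 0.000196). The same 2 genes passed as higher in SH against UH, in SH against UN and in the interaction, where *Krt13* differed by 3.87 ± 0.347 (limma adjusted p = 4.29e-05). *Krt5*, *Krt17* and *Krt79*, also tested, had every SH library above every other library, as did 11.6% of all genes tested. Their values were at most 0.830 TPM, and values under 1 TPM cannot reach 2-fold on the log2(TPM + 1) scale. *Krt10*, *Krt16* and *Krt222* did not show that pattern. The 7 simple epithelial keratins held 96.4% of the summed TPM of all 51 keratin genes in UN, 98.9% in UH, 94.8% in SN and 78.4 to 85.6% in SH.

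Vimentin, the filament protein of mesenchymal cells, was far more abundant than all keratins in every library. *Vim* was at 1278 to 1501 TPM in UN, 5576 to 6188 TPM in UH, 1072 to 1124 TPM in SN and 2660 to 3200 TPM in SH. It rose with hypoxia by 2.08 ± 0.107 (log2, limma adjusted p = 7.41e-08) in unsorted and by 1.44 ± 0.107 (limma adjusted p = 2.00e-06) in sorted cells. The 7 keratins came to 0.166 ± 0.0685 TPM per TPM of *Vim* in UN, 0.105 ± 0.00632 in UH, 0.125 ± 0.0201 in SN and 0.0522 ± 0.00987 in SH (SD, n = 3).

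Of 13 other intermediate filament genes, 12 were tested. Of all genes, 5.46% passed as higher and 11.8% as lower in UH against UN. The shares were 7.47% and 5.0% in SH against SN, and 3.2% and 7.57% in SN against UN. In UH against UN 3 rose, among them *Vim* and *Nefh*, and 2 fell, the lamins *Lmnb1* (-1.88) and *Lmna* (-1.12). In SH against SN 3 rose, *Des* (2.01), *Synm* (1.79) and *Vim*, and *Lmnb1* fell by 1.54 on the log2 scale. *Des*, the muscle filament desmin, reached 6.06 to 11.3 TPM in SH and at most 1.81 TPM elsewhere. Other members of this class differed between sorted and unsorted cells. *Nes*, the progenitor filament nestin, was at 25.2 to 51.8 TPM in unsorted and 0.123 to 0.472 TPM in sorted cells (-4.44 ± 0.182 in SN against UN, limma adjusted p = 1.23e-08). *Ina*, a neuronal filament, was lower in SN than in UN by 2.41 ± 0.239 (limma adjusted p = 1.80e-05). None passed as higher in SN than in UN. *Ina* also passed as lower in UH than in UN (-1.14) without UN replicate 1.

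Keratin filaments are anchored at desmosomes, and 12 of 15 genes for desmosomes and keratin linkers were tested. Of all genes, 7.47% passed as higher and 5.0% as lower in SH against SN, and 5.46% and 11.8% in UH against UN. The shares were 3.2% and 7.57% in SN against UN, 7.65% and 5.35% in SH against UH, and 8.97% and 11.3% in SH against UN. With hypoxia in sorted cells 4 rose and none fell: *Perp* (2.42), *Pkp2* (2.04), *Pkp1* (1.75) and *Evpl* (1.15). *Pkp2*, the plakophilin of simple epithelia, was at 10.3 to 15.1 TPM in UN, 33.8 to 40.8 TPM in UH, 16.2 to 17.5 TPM in SN and 56.3 to 90.3 TPM in SH, and rose in both settings (1.47 ± 0.174 in UH against UN, limma adjusted p = 3.50e-05). *Ppl* also rose in unsorted cells (1.03), and *Pkp4* (-1.31) and *Dsg2* (-1.04) fell. *Dsg2*, the desmosomal cadherin of simple epithelia, was at 6.08 to 6.68 TPM in UN, 1.72 to 3.37 TPM in UH and at most 0.131 TPM in sorted cells. In SN against UN *Dsg2* (-2.83) and *Perp* (-2.07) were lower and *Ppl* (1.49) and *Plec* (1.14) higher, the last 2 being plakins that bind keratin. In SH against UH 5 were higher, among them *Pkp1*, *Pkp3* and *Plec*, and *Dsg2* was lower, and SH against UN gave 6 higher and 1 lower, with *Dst* (1.03) added as higher without UN replicate 1.

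**Figure D4:**
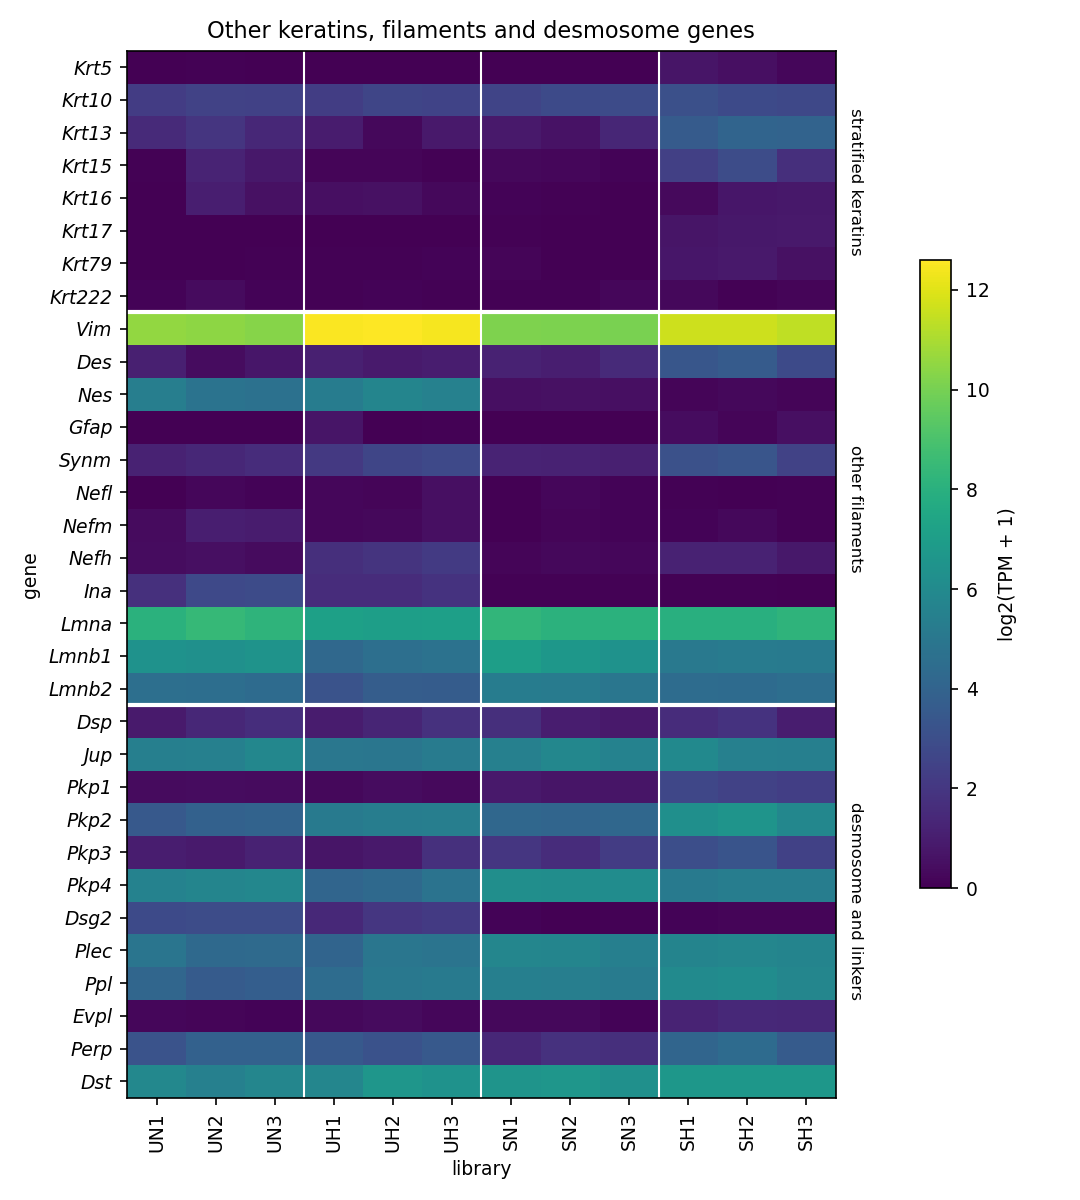
Level, as log2(TPM + 1) in color, of the tested genes for stratified keratins, other intermediate filaments and desmosomes with linkers (rows) in the 12 libraries (columns). *Krt13*, *Krt15*, *Des* and *Pkp1* are highest in the 3 SH columns, *Nes* and *Dsg2* are near 0 in the 6 sorted columns, and *Vim* is the brightest row throughout.

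Of 15 epithelial junction genes, 9 were tested, and in UH against UN none rose and 2 fell, *Cdh1*, the E-cadherin gene (-1.98 ± 0.196, limma adjusted p = 8.74e-06), and *Cldn1* (-1.08). In that comparison 5.46% of all genes passed as higher and 11.8% as lower. The shares were 3.2% and 7.57% in SN against UN and 7.47% and 5.0% in SH against SN. They were 7.65% and 5.35% in SH against UH, and 8.97% and 11.3% in SH against UN. *Cdh1* was at 5.81, 10.3 and 11.1 TPM in UN, 1.27 to 1.69 TPM in UH, 0.488 to 0.573 TPM in SN and 0.258 to 0.350 TPM in SH. It was lower in SN than in UN by 2.68 ± 0.196 (limma adjusted p = 1.51e-06), while the tight junction genes *Cldn1* (1.95) and *Cgn* (1.85) were higher. In SH against SN *Cldn1* fell by 2.26 and *Esrp2*, an epithelial splicing factor, rose by 1.30. No gene passed in SH against UH, and SH against UN gave *Esrp2* as higher and *Cdh1* as lower. With UN replicate 1 left out, *Cldn1* in UH against UN was under the 2-fold limit (-0.83), and *Cgn* passed as higher in SH than in UN (1.25).

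Among 15 transcription factors known to act on keratin genes or epithelial identity, 13 were tested. Over all genes, 5.46% passed as higher and 11.8% as lower in UH against UN, and 7.47% and 5.0% in SH against SN. The shares were 8.08% and 2.18% in the interaction and 3.2% and 7.57% in SN against UN. They were 7.65% and 5.35% in SH against UH, and 8.97% and 11.3% in SH against UN. *Klf4* rose with hypoxia in both settings, from 15.6 to 17.4 TPM in UN to 58.7 to 80.8 TPM in UH (2.06 ± 0.165, limma adjusted p = 1.84e-06) and from 9.37 to 15.0 TPM in SN to 37.6 to 40.6 TPM in SH (1.71 ± 0.165, limma adjusted p = 1.27e-05). In UH against UN 5 factors fell, among them *Hnf4a* (-1.97), *Fos* (-1.96) and *Cebpa* (-1.93), and in SH against SN *Fos* alone fell (-1.79). The interaction passed as higher for *Cebpa* (2.71), *Hnf4a* (1.79) and *Elf3* (1.76). *Hnf4a* was at 1.70 to 4.98 TPM in UN but at 0.101 to 0.225 TPM in UH, 0.159 to 0.429 TPM in SN and 0.0625 to 0.142 TPM in SH, so it was near the bottom of the scale in both sorted groups and its interaction restates the fall in unsorted cells. *Cebpa*, a hepatocyte factor, was at 7.69 to 17.9 TPM in UN, 1.91 to 3.10 TPM in UH, 4.68 to 5.58 TPM in SN and 8.12 to 11.1 TPM in SH. In SN against UN 3 were lower and none higher, in SH against UH *Cebpa* was higher and *Cebpb* lower, and SH against UN gave *Klf4* as higher and *Fos*, *Hnf4a* and *Cebpb* as lower. *Elf3* (-1.34) and *Tfap2a* (-1.18) were added as lower in SN than in UN, and *Tfap2a* (-1.21) in SH than in UN, without UN replicate 1. Of the 10 biliary markers tested, *Spp1*, the osteopontin gene, alone passed with hypoxia. It fell in both settings (-2.14 and -2.27), opposite in sign to *Krt19*, and the other 9 did not pass in either.

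Several genes had patterns over the 12 libraries that were close to those of a keratin. Pearson's r of log2(TPM + 1) was computed against 13566 genes with a mean of at least 1 TPM, and the libraries share their group structure, so r is given as a description. *Krt8* was most like *Atp9a* (0.991), *Rpl23a* (0.987) and *Myh14* (0.986), *Krt19* like *Efemp2* (0.988), *Cdc42ep2* (0.987) and *Cntfr* (0.987), and *Krt7* like *Med26* (0.969), *Anks3* (0.969) and *Lyrm1* (0.968). For *Krt18* the closest were *Spint2* (0.921), *Ncf4* (0.898) and *5830454E08Rik* (0.860). *Atp9a* was at 9.94, 29.8 and 28.1 TPM in UN, low in the same UN library as *Krt8*, and at 1.59 to 1.79 TPM in SN. *Krt8* and *Krt18* were not among each other's 3 closest genes.

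Reads of a few overlapping genes could bear on these values. In GENCODE M21 *Krt7* overlaps the antisense gene *Gm671* by 1269 bases, *Krt8* overlaps the lincRNA *Gm36026* by 271 bases and *Krt80* overlaps the antisense gene *Gm35853*, and none of the 3 is a row of the table. *Krt80* also overlaps the microRNA gene *Mir1941* by 83 bases, and that gene is a row of the table. The kit was stranded, but the setting used in counting is not given in the sources used here.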

How the data were processed

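The mRNA of 12 libraries (UN, UH, SN and SH, 3 each) was sequenced. Per the labels the authors ran nf-core/rnaseq 3.12.0 on mm10 and deposited TPM per gene from Salmon. The annotation is not given in the sources used here, and 98.8% of the gene IDs occur in GENCODE M21. TPM sums to 1000000 in each library and keeps no depth.

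The keratins and gene lists were chosen with earlier results of these data known. Log2(TPM + 1) of the 18909 genes with a mean of at least 0.1 TPM was fitted with limma 3.58.1 (R 4.3.3), 1 mean per group, empirical Bayes with trend and Benjamini-Hochberg adjustment over all genes tested. A gene was called at adjusted p under 0.05 and over 2-fold. The fit was tested on simulated data. Alternatives were other pseudocounts, minimums, median-of-ratios and quantile scaling, a replicate block and leaving out each library. Named were the 7 keratins, the 3 genes most like each of 4 of them, and at most 4 called genes per list and comparison by fold, of which some are not reported here. Promoters came from RefSeq (GRCm38.p6).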

Additional observations from a re-analysis of the deposited data

Results flagged for a closer look

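The response of *Krt8* to hypoxia differed between sorted and unsorted cells by 1.69 on the log2 scale (interaction, limma adjusted p = 0.0129). All 3 SH libraries (8.38 to 12.2 TPM) lay above all 3 SN libraries (4.204 to 5.72 TPM), while UH (34.4 to 41.5 TPM) lay below 2 of the 3 UN libraries. The response of *Krt80* differed in the other direction, by -1.42 (interaction, limma adjusted p = 0.00467), being 4.68-fold in unsorted and 1.83-fold in sorted cells. Both stayed past the threshold under the 19 alternatives run, at 1.34 to 2.11 for *Krt8* and at -2.09 to -1.29 for *Krt80*.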

How the results depend on the processing

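Of 295 keratin values under alternatives in the 3 tested comparisons, 276 kept their direction and their side of the threshold. Adding 0.1 TPM in place of 1 raised the genes called to 4882 in UH against UN (main 3254) and to 4126 in SH against SN (main 2357). Leaving out 1 library at a time, the keratins called in SH against SN were 1 to 3, being 1 without SN replicate 3 or SH replicate 1. *Krt18*, called nowhere, changed sign in UH against UN to 0.16 under median-of-ratios scaling, in SH against SN to 0.13 under quantile normalization and to as much as 0.29 without SH replicate 3 (-0.20 to 0.29 over single libraries left out), and in the interaction to -0.17 under median-of-ratios scaling and to -0.0049 without SH replicate 2 (-0.0049 to 0.48 over single libraries left out). *Krt8* in SH against SN fell below 2-fold under quantile normalization (0.96). *Krt19* passed the interaction with a minimum of 1 TPM (-1.37, adjusted p = 0.0442), under median-of-ratios (-1.73) or quantile (-1.67) scaling and without UN replicate 2 (-1.65). The split of genes called higher and lower moved from 1032 and 2222 to 1564 and 1217 in UH against UN under median-of-ratios scaling, and from 1527 and 412 to 901 and 782 in the interaction. The cause was not tested. Same-numbered libraries did not deviate together (correlations -0.063 to 0.141), and every library correlated best with its own number only in SH against UN. A replicate block gave 3256, 2357 and 1922 genes and 2, 3 and 2 keratins called in UH against UN, SH against SN and the interaction, against 3254, 2357 and 1939 genes and the same keratin counts without it. *Krt20* and *Krt23* could be fitted only with no minimum. Depth is unknown, so how far values under 1 TPM are limited by counting cannot be given.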

Other observations

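Outside the 7 simple epithelial keratins and the lists, some hair keratins appeared at low level in SH. They were picked after their values were seen and were not tested as a group. *Krt33a* was at 1.68, 1.63 and 1.94 TPM in SH and at most 0.147 TPM elsewhere, and *Krt36* was at 0.770, 0.708 and 0.621 TPM in SH and at most 0.247 TPM elsewhere. Among other hair keratins, *Krt83* was at 0.179 to 0.564 TPM in SH and *Krt31* at most 0.147 TPM. *Krt33b*, *Krt34* and *Krt81* were at 0 in every SH library. *Krt17*, a keratin of wounded and basal epithelium on the stratified list, was at 0.616, 0.768 and 0.787 TPM in SH and at most 0.0428 TPM elsewhere. It did not pass the 2-fold limit, which values under 1 TPM cannot reach on the log2(TPM + 1) scale. In all, 13 of the 44 other keratin genes had every SH library above every other library, 29.5% of them, a pattern shown by 6.07% of all 45706 genes of the table. Genes at 0 in every library cannot show it, and these were 4 of the 44 but 17689 of the 45706. Keratin genes above 0 TPM numbered 31 to 38 of 51 in SH libraries and 13 to 19 in the others. SH libraries also had more genes of all kinds above 0 TPM (21666 to 22369 against 18901 to 20251), and the part of that difference in the keratin counts was not tested.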
